A study of Mus musculus with 9 samples.

Results

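Glucocorticoid-responsive genes were followed in the brains of mice with cerebral venous sinus thrombosis (CVST). The set held 10 genes, chosen by symbol as the receptor of the hormone and 9 genes that it is widely known to induce, out of 20731 gene symbols in the count table. Every member was present in the table, and all 10 passed the filter on low counts that left 14746 genes to be tested. The set comprised Nr3c1 (the receptor), Fkbp5, Tsc22d3, Sgk1 and Zbtb16 (direct targets), Pdk4 and Plin4 (fuel use and lipid storage), Mt1 and Mt2 (metallothioneins) and Cdkn1a (a cell cycle inhibitor).

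Glucocorticoids such as corticosterone are released by the adrenal gland after surgery, pain and other stress. The hormone enters the cell and binds the glucocorticoid receptor, which is held ready by heat shock proteins and their co-chaperones. The loaded receptor moves to the nucleus and binds pairs of inverted hexamers in DNA, the glucocorticoid response elements, and transcription of nearby genes increases within hours. In brain, neurons, astrocytes, oligodendrocytes and the vessel wall all carry the receptor, and these target genes are used as a readout of recent exposure.

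Whole-transcriptome RNA sequencing was performed in 9 male C57BL/6J mice aged 8 to 10 weeks, 3 in each group, on day 2 after modelling. All mice had thrombosis of the superior sagittal sinus, the large vein along the top of the brain, and all received isoflurane and the opioid butorphanol. The CVST group had this thrombosis alone. In the CVST+Ligation group the deep cervical lymph nodes, which drain the meningeal lymphatic vessels, were ligated as well. The 4-PBA group had thrombosis and ligation and was injected intraperitoneally with 4-phenylbutyric acid (4-PBA, 100 mg/kg), a compound that relieves stress of the endoplasmic reticulum. The methods place the injection 30 min before modelling, whereas the description of the series places it after ligation. Unoperated mice were not analysed here, so a response shared by every group, such as one to the thrombosis surgery, cannot be seen in these comparisons. Ligation needed a further incision in the neck, and no sham neck operation is described for the CVST mice. In comparisons with CVST, loss of lymph drainage and the added operation therefore cannot be told apart. Hormone levels and the time of day of collection were not analysed here.

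Total counts ranged from 18100739 to 25091498 per library, and 3 counts, the level below which a value was not interpreted, corresponded to 0.114 to 0.163 CPM (counts scaled to a common library total). The tissue was labelled as brain, and the series description names the cortex. Marker genes of brain regions differed widely between the libraries. The summed CPM of 6 markers of cortical excitatory neurons was 1894 to 2342 in CVST mice, 548 to 1733 in CVST+Ligation mice and 652 to 954 in 4-PBA mice. The 7 striatal markers summed to 1010 to 1703 CPM in CVST mice, 181 to 491 CPM in CVST+Ligation mice and 232 to 1183 CPM in 4-PBA mice. CVST+Ligation mouse 2 stood apart with 1331 CPM of 7 cerebellar markers, against 138 to 253 CPM in the other libraries. Among these markers Gabra6, which marks cerebellar granule cells, was at 0 in every library but CVST+Ligation mice 2 and 3. Because CVST+Ligation mouse 2 stood apart, each result for a member that changed its call without this mouse is given both ways. The 7 markers of midbrain dopamine neurons summed to 50.2 to 133 CPM in CVST mice and to 227 to 309 CPM in the ligated mice, and the 3 genes of the whole table with an adjusted p below 0.05 in CVST+Ligation against CVST were among them. The 6 thalamic markers summed to 54.4 to 92.3 CPM in CVST mice and to 207 to 715 CPM in the ligated mice. The 6 markers of the choroid plexus, which secretes cerebrospinal fluid, summed to 788 to 979 CPM in CVST mice, 16.5 to 858 CPM in CVST+Ligation mice and 447 to 3123 CPM in 4-PBA mice. The 7 hypothalamic markers reached 277 to 473 CPM in the 4-PBA mice and at most 20.9 CPM in the others, where Hcrt, Oxt, Avp or Nkx2-1 was at 0 in 5 libraries. In bulk tissue, a change in the share of a cell type or region and a change of RNA within cells cannot be told apart, and the part of the regional markers in the results below was not tested.

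Promoter sequences were examined for the letters that the receptor and the metal-sensing factor of the metallothionein genes are known to prefer. They are shown for Sgk1, the member whose level differed most clearly between groups, and for Mt1 and Mt2, the members that moved together. RefSeq promoter windows of GRCm38.p6, from 250 bases before to 50 bases after each annotated start, covered 16 starts of 8 members. No window of Zbtb16 or Nr3c1 was searched. The windows are printed up to 30 bases after the start, on the + strand. Capitals mark the glucocorticoid response element in Sgk1 and the metal response elements, on either strand, in Mt1 and Mt2.
Sgk1, chr10:21993640-21993919: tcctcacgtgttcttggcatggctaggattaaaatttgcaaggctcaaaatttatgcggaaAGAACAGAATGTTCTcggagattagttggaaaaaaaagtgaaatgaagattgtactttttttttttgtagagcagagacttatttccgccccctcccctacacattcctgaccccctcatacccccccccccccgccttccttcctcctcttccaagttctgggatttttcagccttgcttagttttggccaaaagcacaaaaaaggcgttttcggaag
Mt1, chr8:94178839-94179118: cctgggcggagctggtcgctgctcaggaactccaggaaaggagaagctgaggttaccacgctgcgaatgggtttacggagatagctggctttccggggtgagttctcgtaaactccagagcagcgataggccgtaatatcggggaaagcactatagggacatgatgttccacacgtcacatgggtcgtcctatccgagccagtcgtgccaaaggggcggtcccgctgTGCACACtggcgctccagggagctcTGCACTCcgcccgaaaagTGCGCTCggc
Mt2, chr8:94172368-94172647: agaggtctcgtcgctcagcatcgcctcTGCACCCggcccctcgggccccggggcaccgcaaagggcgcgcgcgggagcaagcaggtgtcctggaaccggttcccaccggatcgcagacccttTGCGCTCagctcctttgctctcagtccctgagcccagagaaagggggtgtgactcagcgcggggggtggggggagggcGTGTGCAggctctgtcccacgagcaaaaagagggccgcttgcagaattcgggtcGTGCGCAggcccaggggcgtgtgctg
The palindromic element, the hexamer AGAACA followed after 3 bases by its reverse complement TGTTCT, was present in 3 of 32851 windows of the genome (0.00913%), and it reads alike on both strands. Among the members it was found in a single window, the fifth of the annotated starts of Sgk1. It reads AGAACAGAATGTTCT at chr10:21993701-21993715, from 189 to 175 bases before the start. A looser form, GNACA followed after 3 bases by TGTNC, where N is any base, was present in 0.475% of all windows. It matched the same place in Sgk1 and a place in Mt1 that lies 94 to 82 bases before the start. The single hexamer AGAACA, searched on both strands and also contained in the full palindrome, was present in 19.0% of all windows and in windows of Sgk1 and Tsc22d3. The metal response element, TGCACNC or TGCGCNC on either strand, was present in 25.7% of all windows. Mt2 held 4 matches and Mt1 held 3, and 1 window of Sgk1 held a match. A match describes the letters only, and response elements can lie far outside these windows.

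**Figure D1:**
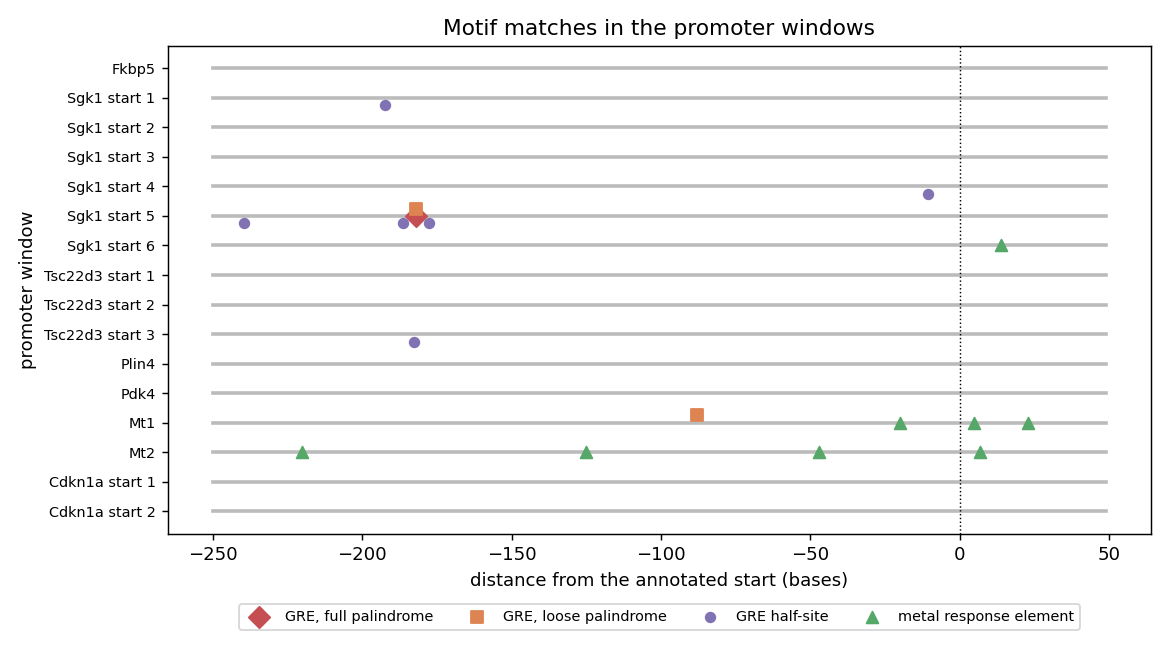
Each grey line is a promoter window of a member, from 250 bases before to 50 bases after the annotated start, and symbols mark matches to the glucocorticoid response element (GRE) in its full, loose and hexamer forms and to the metal response element. The full palindrome lies in 1 of the 16 windows, a start of Sgk1, and 7 of the matches to the metal response element lie in Mt1 and Mt2.

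Levels between genes were compared as FPKM, counts scaled to the library total and to the length of the gene. Averaged over all 9 mice, the metallothioneins Mt2 (492 ± 251 FPKM, SD, n = 9) and Mt1 (310 ± 131 FPKM) were the most abundant members. Sgk1 (52.9 ± 14.6 FPKM), Tsc22d3 (45 ± 16.5 FPKM), Cdkn1a (41.6 ± 22.1 FPKM) and Fkbp5 (29.5 ± 7.67 FPKM) followed. The receptor gene Nr3c1 stood at 15.3 ± 3.89 FPKM, Zbtb16 at 5.89 ± 2.19 FPKM, Pdk4 at 4.55 ± 1.32 FPKM and Plin4 at 1.39 ± 0.900 FPKM. Between neighbours in this order the ranges over the mice were separate only for Mt1 and Sgk1 and for Nr3c1 and Zbtb16. Mt2 was above Mt1, and Pdk4 above Plin4, in each of the 9 mice, although these ranges overlapped. The order depends on the length used for each gene, 479 bases for Mt1 and 256 bases for Mt2. By CPM, which leaves length out, Mt1 was above Mt2 in every mouse, by 1.07 to 1.38 times. Likewise Cdkn1a (477 bases) was above Fkbp5 (1397 bases) in mean FPKM but below it in mean CPM, 20.0 against 41.3.

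From here on, levels are again CPM on the scale corrected for library composition, given for mice 1, 2 and 3 of a group in that order. Group differences are log2 fold changes with the standard error (SE) of edgeR's quasi-likelihood model, and adjusted p-values are corrected over all genes tested. In CVST+Ligation against CVST, 1 of the 10 members, Sgk1, had an unadjusted p below 0.05, while 9.64% of all genes tested did and 4.18% did with a lower level. In 4-PBA against CVST+Ligation no member did (0 of 10), against 3.23% of all genes. For 4-PBA against CVST it was again 1 member, Sgk1, against 15.4% of all genes, or 7.33% in the lower direction. Groups without overlap were seen for 0 members in CVST+Ligation against CVST (13.8% of all genes) and for 0 members in 4-PBA against CVST+Ligation (7.73%). After adjustment no member remained in any comparison, where 3, 0 and 18 genes of the whole table did (0.0203%, 0% and 0.122%). The members' counts were thus close to those of the genes at large. The median log2 fold change of the 10 members was −0.02, 0.01 and 0.17 in the 3 comparisons, beside 0.00, −0.02 and −0.01 over all genes tested. The comparisons share groups and are not independent of each other.

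**Figure D2:**
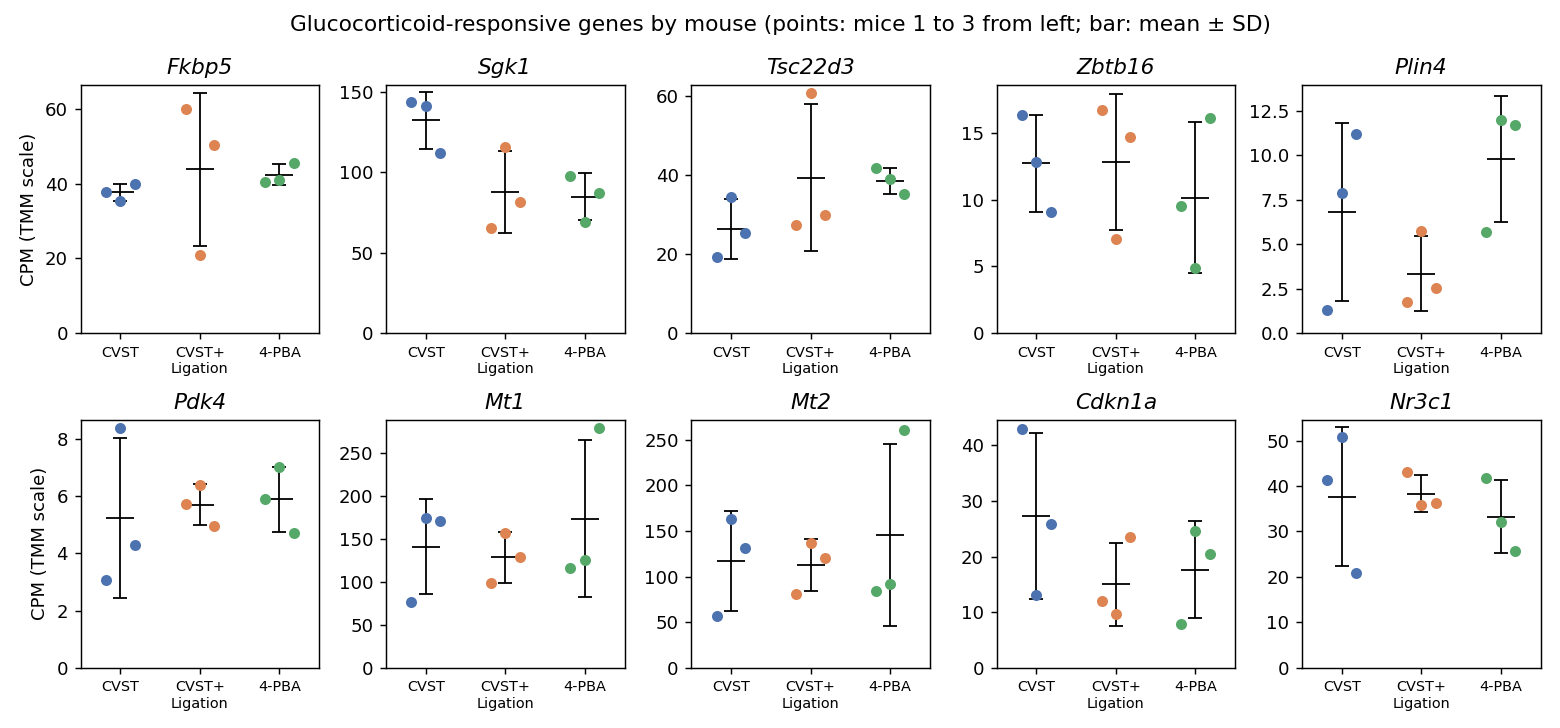
Each panel plots 1 member, with its CPM on the vertical axis from 0, the 3 mice of each group as points and the mean ± SD as a bar. Sgk1 lies at 112 to 143 CPM in CVST mice and at 65.5 to 115 CPM in the ligated mice, whereas most other members overlap widely between groups.

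**Figure D3:**
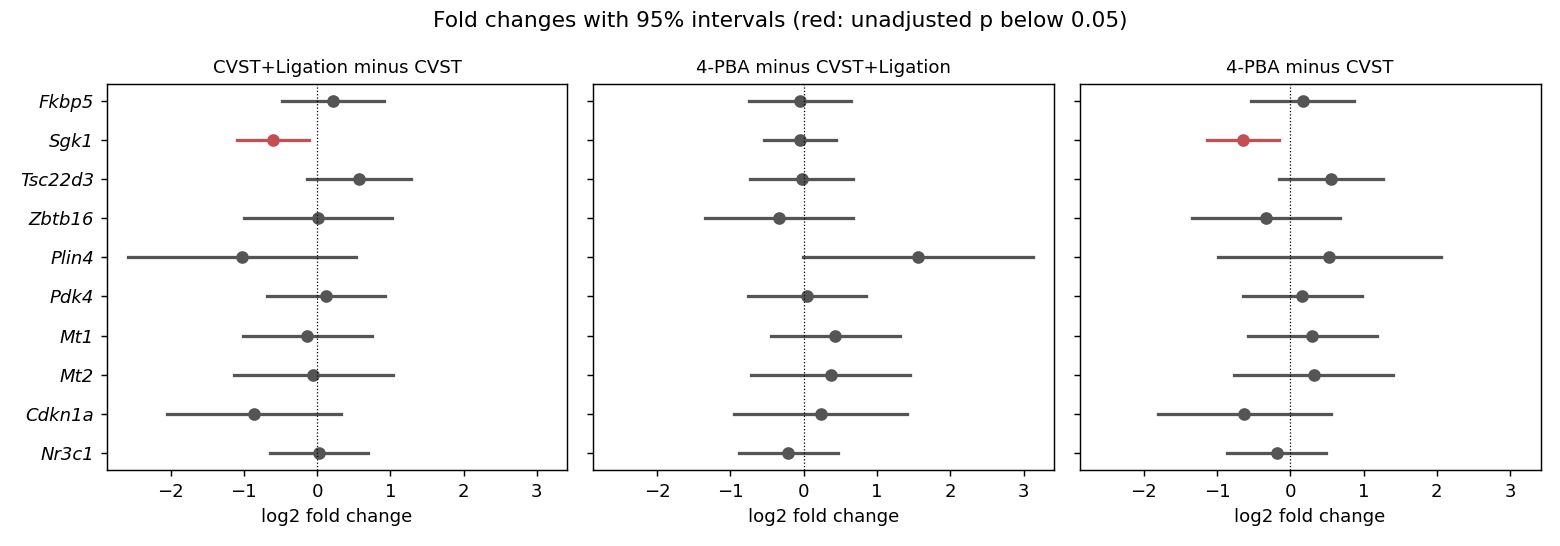
Points are log2 fold changes and lines their 95% intervals for the 10 members in the 3 comparisons, in red where the unadjusted p was below 0.05. Sgk1 is the only red member, at −0.60 in CVST+Ligation against CVST and −0.64 in 4-PBA against CVST.

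Nr3c1 encodes the glucocorticoid receptor itself and lies on chromosome 18. Its level was 41.4, 50.8 and 20.9 CPM in CVST mice, 43.1, 35.7 and 36.2 CPM in CVST+Ligation mice and 41.7, 32.1 and 25.8 CPM in 4-PBA mice. The CVST mice alone spanned the whole range of the other groups. CVST+Ligation differed from CVST by 0.02 on the log2 scale (SE 0.30, 95% interval −0.65 to 0.70), and 4-PBA from CVST+Ligation by −0.21 (SE 0.30, −0.88 to 0.47). Differences within those intervals were not detectable with 3 mice per group. Without CVST mouse 3, the library with the lowest level, 4-PBA lay below CVST by a log2 fold change of −0.49, with an unadjusted p below 0.05 (adjusted p = 0.295).

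The genes that hold the receptor ready, assist its transcription or handle the hormone formed a list of 19 genes, Nr3c1 included, of which 18 passed the filter on low counts. In CVST+Ligation against CVST, 17 of the 18 fold changes were above 0, with a median of 0.18 beside 0.00 over all genes. Of all genes 9.64% had an unadjusted p below 0.05, and of these 18 genes 1 did. This was Hsd11b1, the enzyme that regenerates active corticosterone within cells, at 15.8, 22.7 and 37.8 CPM in CVST and 33.1, 60.3 and 36.3 CPM in CVST+Ligation. Its log2 fold change was 0.77 (SE 0.34, adjusted p = 0.516), and the groups overlapped. Treated mice against CVST+Ligation mice had 17 of the 18 values below 0, with a median of −0.14 (−0.02 over all genes). None of the 18 had p below 0.05, beside 3.23% of all genes. Against CVST, 12 lay above 0, with a median of 0.04 (−0.01 over all genes), and again none had p below 0.05, beside 15.4%. Both of the first comparisons share the CVST+Ligation mice, so that their opposite signs are not independent. The 18 values of a comparison also come from the same mice, so their signs are not independent of each other.

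Fkbp5 encodes a co-chaperone that lowers the affinity of the receptor for its hormone, a short feedback loop in which the receptor induces its own brake. The gene spans chr17:28399094-28517527 on the − strand (GRCm38). Fkbp5 stood at 37.9, 35.4 and 40 CPM in CVST mice and at 40.5, 41.1 and 45.6 CPM in 4-PBA mice. Both groups were tight, with coefficients of variation of 6.09% and 6.53%, and all 4-PBA values lay above all CVST values. That separation amounted to 0.17 on the log2 scale (SE 0.31, adjusted p = 0.849). The CVST+Ligation mice read 60.1, 20.9 and 50.5 CPM, which are the highest, the lowest and the second highest values of the 9 mice. With all mice, CVST+Ligation differed from CVST by 0.22 (SE 0.31, 95% interval −0.48 to 0.91, adjusted p = 0.838). Without CVST+Ligation mouse 2, the library with cerebellar markers, Fkbp5 was 0.55 higher in CVST+Ligation than in CVST (unadjusted p below 0.05, adjusted p = 0.365). Without that mouse it was also 0.37 lower in 4-PBA than in CVST+Ligation (log2 fold change −0.37, unadjusted p below 0.05, adjusted p = 0.448), beside −0.05 with it.

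Tsc22d3 encodes GILZ, a leucine zipper protein known to restrain inflammatory transcription, and lies at chrX:140539528-140600659 on the − strand. Its level was 19.2, 34.3 and 25.3 CPM in CVST mice, 27.3, 60.6 and 29.7 CPM in CVST+Ligation mice and 41.6, 38.9 and 35.1 CPM in 4-PBA mice. The highest value belonged to CVST+Ligation mouse 2, the mouse with the lowest Fkbp5. Every 4-PBA mouse was above every CVST mouse, and the mean difference was 0.55 on the log2 scale (SE 0.32, 95% interval −0.16 to 1.26, adjusted p = 0.441). Groups that do not overlap were found for 3 members in this comparison, and for 23.7% of all genes. Tsc22d3 and Fkbp5 were higher, as 12.3% of all genes were, and Sgk1 was lower, as 11.5% were. CVST+Ligation differed from CVST by 0.58 (SE 0.32, adjusted p = 0.587), and by 0.11 (adjusted p = 0.915) without CVST+Ligation mouse 2. The difference from CVST had an unadjusted p below 0.05 without CVST mouse 2 (0.82, adjusted p = 0.580 for CVST+Ligation, and 0.80, adjusted p = 0.343 for 4-PBA) and without CVST+Ligation mouse 1 (0.78, adjusted p = 0.571). The treated group differed from CVST+Ligation by −0.02 (SE 0.31) with all mice and by 0.45 (adjusted p = 0.586) without CVST+Ligation mouse 2.

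Sgk1 encodes a kinase that regulates ion channels and transporters and is induced in oligodendrocytes and neurons by stress hormones. The gene spans chr10:21882184-21999903 on the + strand, and the start shown above with the full response element is among its downstream starts. Sgk1 stood at 143, 141 and 112 CPM in CVST mice, 65.5, 115 and 81.5 CPM in CVST+Ligation mice and 97.6, 68.8 and 87.1 CPM in 4-PBA mice. Of the 6 ligated mice, 5 were below the lowest CVST mouse, and the exception was CVST+Ligation mouse 2. CVST+Ligation was lower than CVST by a log2 fold change of −0.60 (SE 0.22, 95% interval −1.09 to −0.10, adjusted p = 0.428), which is 0.662 times the CVST level. For 4-PBA against CVST the value was −0.64 (SE 0.22, −1.14 to −0.15, adjusted p = 0.208), or 0.640 times. The 4-PBA and CVST+Ligation groups differed by −0.05 (SE 0.22, −0.54 to 0.44).

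The CVST libraries share both of these contrasts, so they count as 1 observation of the CVST level. Without CVST+Ligation mouse 2, the log2 fold change of Sgk1 in CVST+Ligation against CVST was −0.85 (adjusted p = 0.342). The unadjusted p rose above 0.05 when any of 4 other mice was left out, with log2 fold changes of −0.54 without CVST mouse 1, −0.54 without CVST mouse 2, −0.43 without CVST+Ligation mouse 1 and −0.55 without CVST+Ligation mouse 3. For 4-PBA against CVST this happened without CVST mouse 1 (−0.57), CVST mouse 2 (−0.58) or 4-PBA mouse 2 (−0.52). The sign was the same in each of these fits. Oligodendrocyte markers, 7 genes, summed to 2559 to 3340 CPM in CVST mice, 2584 to 5804 CPM in CVST+Ligation mice and 4504 to 7278 CPM in 4-PBA mice. Of these 7, 1 was higher in CVST+Ligation and 5 were higher in 4-PBA than in CVST at an unadjusted p below 0.05, the other direction from Sgk1. Over all genes, 9.64% and 15.4% had an unadjusted p below 0.05 in these comparisons, and 4.18% and 7.33% had one with a lower level. Of the 6 cortical excitatory markers 3 and 4 were lower in these comparisons, and of the 7 striatal markers 7 and 2, the direction of Sgk1. The 6 microglial markers also went that way, with a sum of 719 to 815 CPM in CVST mice and 564 to 698 CPM in the ligated mice, and 2 and 1 of them were lower. Of the 7 midbrain dopamine markers 6 and 6 were higher, and of the 6 thalamic markers 4 and 5. The part of these cells in the level of Sgk1 was not tested.

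Zbtb16 encodes PLZF, a zinc finger repressor that glucocorticoids and progestins induce, at chr9:48654297-48836222 on the − strand. It was measured at 16.3, 12.8 and 9.06 CPM in CVST mice, 16.7, 7.06 and 14.7 CPM in CVST+Ligation mice and 9.54, 4.84 and 16.1 CPM in 4-PBA mice. Values ranged over 3.46-fold across the 9 mice, and each group held both high and low mice. The log2 fold change was 0.01 (SE 0.45) in CVST+Ligation against CVST, −0.34 (SE 0.45) in 4-PBA against CVST+Ligation and −0.33 (SE 0.45) in 4-PBA against CVST. The 95% interval of the first of these, −0.99 to 1.02, leaves room for a difference of about 2-fold either way.

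Pdk4 encodes a kinase that switches off pyruvate dehydrogenase and so shifts cells from glucose to fatty acids, at chr6:5483351-5496309 on the − strand. Its level was 3.06, 8.38 and 4.29 CPM in CVST mice, 5.74, 6.39 and 4.97 CPM in CVST+Ligation mice and 5.91, 7.03 and 4.72 CPM in 4-PBA mice. All 6 ligated mice lay within the range of the CVST mice. The log2 fold changes were 0.12 (SE 0.36), 0.05 (SE 0.36) and 0.17 (SE 0.36) in the 3 comparisons. Without CVST mouse 2, the highest of all, 4-PBA was above CVST by 0.70 (unadjusted p below 0.05, adjusted p = 0.345).

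Plin4 encodes perilipin 4, a coat protein of lipid droplets, and was the member that varied most. It lies at chr17:56100591-56109803 on the − strand and overlaps Hdgfl2 on the other strand. Plin4 had 31 to 307 counts per library and Hdgfl2 2032 to 3277, and whether the counting used strand is not stated, so reads of Hdgfl2 may be included in the values of Plin4. The level of Plin4 was 1.32, 7.89 and 11.2 CPM in CVST mice, 1.74, 5.72 and 2.55 CPM in CVST+Ligation mice and 5.69, 12 and 11.7 CPM in 4-PBA mice. The lowest 4-PBA mouse was just below the highest CVST+Ligation mouse. The CVST mice ranged from the lowest value of all to 11.2 CPM, just below 4-PBA mice 2 and 3. CVST+Ligation differed from CVST by −1.03 (SE 0.70, adjusted p = 0.656), and by −1.52 (unadjusted p below 0.05, adjusted p = 0.554) without CVST mouse 1. Without CVST+Ligation mouse 2 that value was −1.66 (adjusted p = 0.631). It was −0.49 (adjusted p = 0.865) without CVST mouse 3 and −0.41 (adjusted p = 0.730) in a limma fit to log2(FPKM + 1), a scale on which the changes of low genes are understated.

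Plin4 stood 1.56 above CVST+Ligation in the 4-PBA group on the log2 scale, 2.95-fold (SE 0.70, 95% interval −0.0044 to 3.13, adjusted p = 1). The interval just includes 0, and the unadjusted p was below 0.05 in 10 of 15 alternative analyses. The adjusted p was at least 0.417 in each of them. Without CVST+Ligation mouse 2 the difference was 2.21 (adjusted p = 0.417), and without 4-PBA mouse 1 it was 1.85 (adjusted p = 0.997), both with an unadjusted p below 0.05. The smallest value with 1 mouse left out was 1.27 (adjusted p = 1), without CVST+Ligation mouse 1, and limma on log2(FPKM + 1) gave 0.86. In 4-PBA against CVST+Ligation, 3.23% of all genes had an unadjusted p below 0.05. So did 6 of the 6 tested hypothalamic markers and 3 of the 6 choroid plexus markers, all higher in 4-PBA. All 6 choroid plexus markers were above 0 (median log2 fold change 2.08). Also higher were 2 of 6 thalamic markers, whereas 3 of 6 tested cerebellar, 2 of 6 cortical excitatory and 2 of 6 neuronal markers were lower. Mouse by mouse, the choroid plexus sum was highest in 4-PBA mouse 1 (3123 CPM), which had the lowest Plin4 of its group. It was lowest in CVST+Ligation mouse 2 (16.5 CPM), which had the highest Plin4 of its group. The part of these tissues in the level of Plin4 was not tested. Against CVST the 4-PBA group differed by 0.53 (SE 0.68, adjusted p = 0.763), and by 0.053 to 1.08 when single mice were left out.

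Fuel use was followed further in a list of 17 other genes of fatty acid use and targets of the lipid-sensing PPAR receptors. The number with an unadjusted p below 0.05 was 1 in CVST+Ligation against CVST, 1 in 4-PBA against CVST+Ligation and 5 in 4-PBA against CVST, beside 9.64%, 3.23% and 15.4% of all genes, and the medians were 0.08, 0.24 and 0.32. Pparg, the receptor of fat cell differentiation, was lower in every ligated mouse than in every CVST mouse, at 9.09, 7.76 and 6.67 CPM in CVST, 4.09, 3.50 and 4.57 CPM in CVST+Ligation and 2.17, 2.52 and 3.43 CPM in 4-PBA. Its log2 fold change was −0.95 (SE 0.26, adjusted p = 0.308) in CVST+Ligation and −1.53 (SE 0.26, adjusted p = 0.0518) in 4-PBA against CVST. Of all genes 13.8% and 23.7% did not overlap between the groups in these comparisons. Enzymes of fatty acid oxidation were higher in 4-PBA than in CVST before adjustment, namely Hadha (0.41), Acadl (0.63) and Acaa2 (0.70), with adjusted p from 0.256 to 0.321. Against CVST+Ligation this held for Ucp2, a mitochondrial carrier, at 0.72 (SE 0.20, adjusted p = 1).

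Mt1 and Mt2 encode small cysteine-rich proteins that bind zinc and copper, and they are induced by metals, inflammation and glucocorticoids. They lie side by side on chromosome 8, Mt2 at chr8:94172664-94173568 and Mt1 at chr8:94179082-94180327, with 5513 bases between them. The longest run shared exactly by their annotated transcripts was 20 bases. Mt1 stood at 77.1, 174 and 171 CPM in CVST mice, 98.8, 157 and 129 CPM in CVST+Ligation mice and 116, 125 and 279 CPM in 4-PBA mice. Mt2 stood at 56.7, 163 and 131 CPM in CVST mice, 81.3, 137 and 121 CPM in CVST+Ligation mice and 84.0, 92.1 and 261 CPM in 4-PBA mice. Both genes were lowest in CVST mouse 1 and highest in 4-PBA mouse 3, and within each group they ranked the mice in the same order.

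Between groups the metallothioneins differed by less than the spread of the mice. The log2 fold changes of Mt1 were −0.13 (SE 0.39), 0.43 (SE 0.39) and 0.30 (SE 0.39) in the 3 comparisons, and those of Mt2 were −0.05 (SE 0.48), 0.37 (SE 0.49) and 0.32 (SE 0.48). The positive values of the 4-PBA group rested on a single mouse. Without 4-PBA mouse 3, Mt1 was −0.09 and Mt2 −0.36 in 4-PBA against CVST+Ligation, and −0.22 and −0.41 against CVST. The astrocyte markers, 6 genes, summed to 2358 CPM in this mouse and to 1080 to 1980 CPM in the others, and their part in the metallothionein level was not tested. Of 10 other genes of zinc handling 9 were tested, and of these, which include the brain metallothionein Mt3, the metal-sensing factor Mtf1 and zinc transporters, none had p below 0.05 in any comparison. Their median log2 fold changes were −0.14, 0.01 and −0.08.

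Cdkn1a encodes p21, which stops the cell cycle and is also a target of p53, at chr17:29090976-29100727 on the + strand. The level of Cdkn1a was 42.8, 13.1 and 25.9 CPM in CVST mice, 11.9, 9.59 and 23.6 CPM in CVST+Ligation mice and 7.80, 24.7 and 20.5 CPM in 4-PBA mice. No ligated mouse was above the upper pair of CVST mice, and 3 of the 6 ligated mice were below the lowest CVST mouse. CVST+Ligation differed from CVST by −0.86 (SE 0.53, 95% interval −2.04 to 0.32, adjusted p = 0.623). The unadjusted p was below 0.05 without CVST mouse 2 (−1.19, adjusted p = 0.585) and without CVST+Ligation mouse 3 (−1.34, adjusted p = 0.436), and the value was −0.62 (adjusted p = 0.813) without CVST+Ligation mouse 2. Without CVST mouse 1, the highest mouse, it was −0.38 (adjusted p = 0.815). The 4-PBA group was 0.23 (SE 0.53) above CVST+Ligation and differed from CVST by −0.63 (SE 0.53). Over fits that left out 1 mouse, the latter value ranged from −0.94 to −0.13, the last without CVST mouse 1. Among 18 other p53 targets, of which 17 were tested, Pmaip1, a trigger of cell death, had p below 0.05 in CVST+Ligation against CVST (−1.31, adjusted p = 0.516), at 0.21 to 1.49 CPM in these mice. None did in 4-PBA against CVST+Ligation. The counts of 1, 0 and 2 in the 3 comparisons stand beside 9.64%, 3.23% and 15.4% of all genes. Phlda3, an inhibitor of Akt signalling, was higher (0.76, adjusted p = 0.218) and Plk2, a kinase also induced by neuronal activity, was lower (−1.05, adjusted p = 0.274) in 4-PBA than in CVST.

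The pattern of the members over the mice did not follow the groups for most of them. The share of the variance of log2 CPM that lay between groups was 59.6% for Sgk1, 34.8% for Plin4, 34.5% for Tsc22d3 and 21.5% for Cdkn1a. It was 11.8% for Zbtb16, 9.42% for Pdk4, 8.34% for Mt1, 6.23% for Nr3c1, 3.02% for Mt2 and 2.95% for Fkbp5. Groups of 3 mice take up a sizeable share even where no difference exists. The shares were not corrected for this or compared with other genes, so they do not show a group difference. CVST mouse 1 was the extreme of 7 members, lowest for Tsc22d3, Plin4, Pdk4, Mt1 and Mt2 and highest for Sgk1 and Cdkn1a. CVST+Ligation mouse 2 was highest for Tsc22d3 and lowest for Fkbp5. No mouse was high, or low, for all members.

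**Figure D4:**
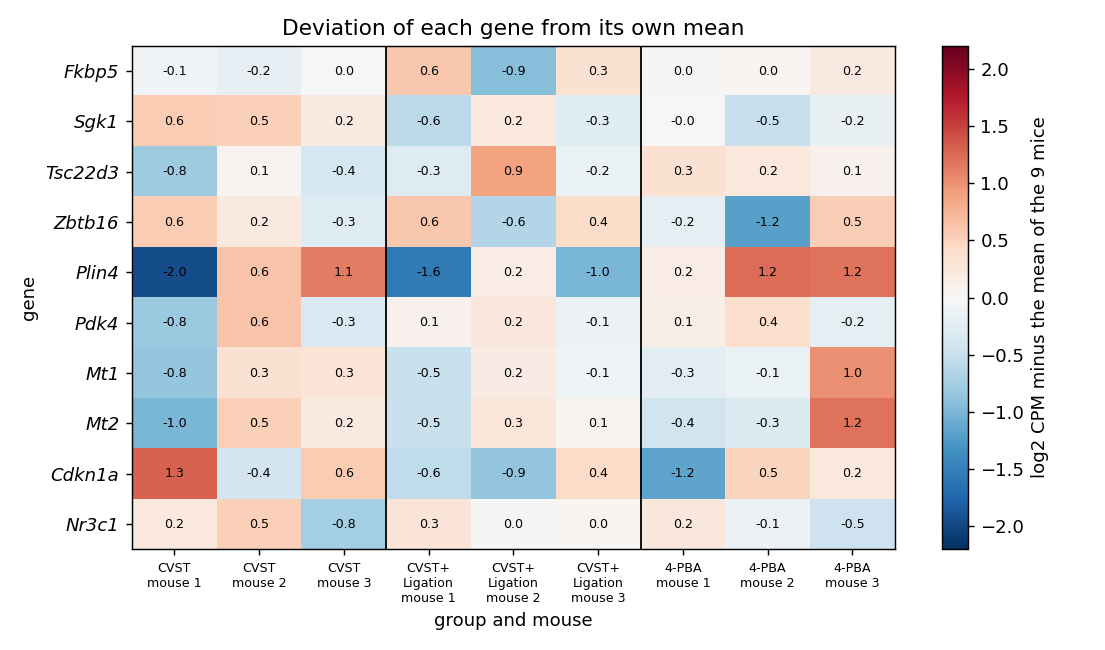
Each cell gives the log2 CPM of a member in a mouse minus that member's mean over the 9 mice, in red above and in blue below the mean, with vertical lines between the groups. CVST mouse 1 is the lowest mouse for 5 members and the highest for Sgk1 and Cdkn1a, and Plin4 has the widest range, 9.10-fold between its lowest and highest mouse.

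The members were then compared with each other over the 9 mice. Of 45 pairs, 22 correlated positively and 23 negatively, with a median Pearson r of −0.02. Exact permutation tests over all 362880 orders of the mice gave p below 0.05 for 6 pairs, and 1 pair remained after Benjamini-Hochberg adjustment over the 45 pairs. This was Mt1 and Mt2, with r = 0.98 (exact permutation p = 2.48e-05, adjusted p = 0.00112) and Spearman's rho = 0.98 (p = 4.96e-05, adjusted p = 0.00223). The correlation was 0.92 without the 2 mice farthest from the median of Mt1, and 0.99 for deviations from the group means. The ratio of their CPM values, Mt1 over Mt2, stayed between 1.07 and 1.38 although each gene varied 3.62-fold or more.

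Of the 6 pairs among the direct targets, 4 correlated negatively and 2 positively, and none had an adjusted p below 0.05. Fkbp5 and Sgk1 ran in opposite directions by rank, with rho = −0.88 (exact permutation p = 0.00308, adjusted p = 0.0692) and r = −0.60 (exact permutation p = 0.0741, adjusted p = 0.429). Without the 2 mice farthest from the median r was −0.72, and within groups −0.78, over the same 9 mice. Fkbp5 and Tsc22d3 gave r = −0.60 (exact permutation p = 0.0893, adjusted p = 0.429) and rho = −0.20 (exact permutation p = 0.613, adjusted p = 0.929). That negative value rested on the 2 farthest mice, without which r was 0.15, although for deviations from the group means it was −0.86. Zbtb16 gave r = 0.51 with Fkbp5 (exact permutation p = 0.165, adjusted p = 0.572), −0.60 with Tsc22d3 (exact permutation p = 0.0937, adjusted p = 0.429) and 0.13 with Sgk1, and Sgk1 gave −0.13 with Tsc22d3. Nr3c1 correlated with Fkbp5 at r = −0.02, with Sgk1 at 0.18 and with Tsc22d3 at 0.05.

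**Figure D5:**
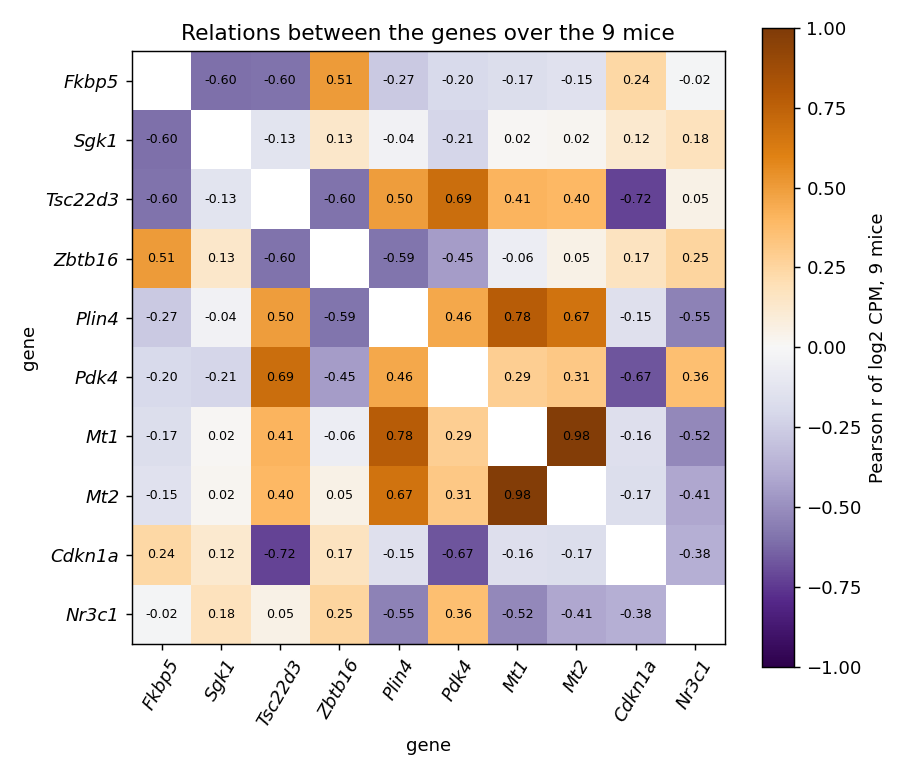
The grid gives Pearson's r of log2 CPM over the 9 mice for each of the 45 pairs of members, in orange for positive and in purple for negative values. Mt1 with Mt2 at 0.98 is the strongest pair, and Fkbp5 is negative with both Sgk1 and Tsc22d3 at −0.60.

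The genes most like 3 of the members over the 9 mice are given as a description, without a test. For Fkbp5 they were Cacng6 (r = 0.97), Zfp715 (0.96) and Wdr26 (0.96), for Sgk1 they were Bag6 (0.95), Lrrtm3 (0.93) and Otud5 (0.91), and for Mt2 they were Pnp (0.93), Tefm (0.93) and Endou (0.92). They had the 3 highest r of all tested genes outside the set, and the 9 points share the regional differences described above.

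Further targets of the receptor were taken from a list of 25 genes. In CVST+Ligation against CVST, 12 of the fold changes were above 0 and 13 below, with a median of −0.01. Beside 9.64% of all genes, 1 of the 25 had an unadjusted p below 0.05. It was Per1, a clock gene that glucocorticoids induce, at 113, 101 and 111 CPM in CVST, 65.9, 76.1 and 74.6 CPM in CVST+Ligation and 74.7, 62.5 and 67.7 CPM in 4-PBA. All ligated mice were below all CVST mice, with log2 fold changes of −0.58 (SE 0.12, adjusted p = 0.25) in CVST+Ligation and −0.66 (SE 0.12, adjusted p = 0.0545) in 4-PBA. Groups did not overlap for 13.8% and 23.7% of all genes in these comparisons, which share the CVST mice. Like Sgk1, Per1 was lower in both ligated groups, and the spread between mice was smaller. Between 4-PBA and CVST+Ligation, 3 of the 25 had p below 0.05, beside 3.23% of all genes, and 0 to 2 did when single mice were left out. Angptl4, an inhibitor of lipoprotein lipase, was higher (1.23, SE 0.46), and Bcl6, a transcriptional repressor, and Dusp1, a phosphatase that switches off MAP kinases, were lower (−0.49, SE 0.20 and −0.97, SE 0.41), each with an adjusted p of 1.

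For 4-PBA against CVST, 5 of these 25 had p below 0.05, 2 higher and 3 lower, and their median was 0.26. Of all genes 15.4% had p below 0.05 in this comparison, and the count ranged from 2 to 9 when single mice were left out. Beside Per1 they were Angptl4 (1.44, SE 0.46, adjusted p = 0.184), Mfsd2a, a lipid transporter of the blood-brain barrier (0.50, SE 0.20, adjusted p = 0.266), Klf9, a hormone-induced transcription factor (−0.81, SE 0.28, adjusted p = 0.208), and Dusp1 (−1.32, SE 0.42, adjusted p = 0.180). Dusp1 was measured at 86.9, 29.3 and 56.3 CPM in CVST, 24.1, 66.4 and 44.1 CPM in CVST+Ligation and 23.8, 21.0 and 24.0 CPM in 4-PBA. Angptl4 was measured at 1.57, 3.86 and 2.39 CPM in CVST, 1.98, 3.71 and 3.38 CPM in CVST+Ligation and 3.63, 10.1 and 7.51 CPM in 4-PBA.

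Several receptor targets, Sgk1, Per1, Dusp1 and Klf9 among them, are also induced by neuronal activity. Of 12 immediate early genes, which respond to activity within minutes, 10 were lower in CVST+Ligation than in CVST at an unadjusted p below 0.05. In 4-PBA against CVST 7 were lower, and the medians were −1.73 and −1.76. Over all genes 4.18% and 7.33% were lower at that threshold, with medians of 0.00 and −0.01. None of the 12 had p below 0.05 in 4-PBA against CVST+Ligation, beside 3.23% of all genes. The log2 fold changes of Egr1 were −1.63 (SE 0.27, adjusted p = 0.166) and −1.73 (SE 0.27, adjusted p = 0.0518), and those of Arc −1.79 (SE 0.42, adjusted p = 0.283) and −2.30 (SE 0.42, adjusted p = 0.0545). Groups did not overlap for 13.8% of all genes in CVST+Ligation against CVST and for 23.7% in 4-PBA against CVST. Of the 10 immediate early genes lower in CVST+Ligation, 7 overlapped between the groups, and of the 7 lower in 4-PBA, 4 did. In each overlapping gene of the first comparison the lowest CVST mouse was mouse 2, within or below the range of the CVST+Ligation mice. Npas4, a transcription factor of active neurons, was at 167, 7.89 and 157 CPM in CVST, 11.1, 3.45 and 4.13 CPM in CVST+Ligation and 10.4, 4.08 and 7.01 CPM in 4-PBA. Nr4a1, an orphan nuclear receptor, was at 287, 67.5 and 317 CPM in CVST and 59.6, 57.8 and 75.0 CPM in CVST+Ligation. Among the CVST mice, mouse 2 was also the lowest for Per1 (101 CPM) and Dusp1 (29.3 CPM), and its Sgk1 was 141 CPM. The group means moved in the direction of Sgk1 and Per1. Lower in the same comparisons were 3 and 4 of the 6 cortical excitatory markers and 7 and 2 of the 7 striatal markers. The part of neuronal activity or of brain regions in the results for Sgk1 and Per1 was not tested.

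Relatives of the members were examined in the same way. Of 21 listed genes from the same families 19 were tested, and 0 had p below 0.05 in CVST+Ligation against CVST, with a median of −0.09. In 4-PBA against CVST+Ligation 1 did, and in 4-PBA against CVST 1 did. Of all genes 9.64%, 3.23% and 15.4% did in these comparisons. Plin5, a further droplet protein, was higher in 4-PBA than in CVST+Ligation (1.23, SE 0.43, adjusted p = 1), at 0.37, 0.31 and 0.44 CPM in CVST+Ligation and 0.98, 0.88 and 0.80 CPM in 4-PBA. Sgk2, a kinase related to Sgk1, was higher in 4-PBA than in CVST (1.11, SE 0.45, adjusted p = 0.273), at 0.93, 1.15 and 1.41 CPM in CVST and 2.22, 2.90 and 2.40 CPM in 4-PBA. Its direction was opposite to that of Sgk1 in the same mice.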

How the data were processed

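RNA from brain tissue of 9 mice, 3 per group, was sequenced on day 2 after modelling, and groups were taken from the sample names. According to the methods and the submitters' processing notes, the authors filtered reads with fastp, aligned them to mm10 (GRCm38) with HISAT2 in its orientation mode, assembled them with StringTie and quantified them with RSEM. Program versions, the counting step and its use of strand are not given in the sources used here. The authors deposited counts, whole numbers of reads per gene symbol, without normalization. They also deposited FPKM values, which the methods call TPM, each being a count divided by the library total and by 1 whole-number length per gene.

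Tests used edgeR 4.0.16 under R 4.3.3. TMM scaling and filterByExpr by group kept 14746 of 20731 genes, a quasi-likelihood model of the 3 groups was fitted to all 9 libraries, and contrasts were tested two-sided with Benjamini-Hochberg adjustment over all genes tested. Intervals use the residual spread of that model. Depth was 18100739 to 25091498 counts per library, and floors cover counting error only. The labels do not say whether libraries of a group come from separate operations or days, so p-values measure the spread between these samples. Within groups, libraries correlated at 0.946 to 0.982 and differed by at least 22.3 times the chi-square degrees of freedom, which leaves no duplicate library. Same-numbered mice of different groups did not deviate together in every pair (r from −0.05 to 0.32), and for differently numbered mice r was −0.36 to 0.13. The numbers were not taken as pairs, but this check cannot exclude pairing. Correlations between members used exact permutation of the mice. Gene positions are from GENCODE M21 (GRCm38) and promoter windows from RefSeq (GRCm38.p6). The code was tested on simulated data.

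The members and lists were chosen with earlier results of these data known. Named are all 10 members, at most 6 genes of a list with the smallest p below 0.05 in a comparison, the 3 genes most like Fkbp5, Sgk1 and Mt2, and markers of a list whose value is given. Mt3, Mtf1 and Hdgfl2 were named outside this rule, Mt3 and Mtf1 without values and Hdgfl2 because it overlaps Plin4. The values of 1 gene counted in the list of fatty acid use are not reported here. Alternatives were DESeq2 size factors, total counts, DESeq2 1.42.0, a minimum of 1 count overall or of 10 counts per library, only the groups compared, the replicate number as a block, limma 3.58.1 on FPKM with a pseudocount of 1 or 0.1 before the log2, and omission of single libraries.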

Additional observations from a re-analysis of the deposited data

How the results depend on the processing

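With 3 mice per group, differences inside the intervals given above were not detectable, and no member had an adjusted p below 0.05 under any alternative. The sign of Sgk1 was negative against CVST under every alternative, and its unadjusted p was below 0.05 in 11 of 15 alternatives for CVST+Ligation and in 12 of 15 for 4-PBA. Among the members, the replicate number used as a block changed the calls of Plin4 and Tsc22d3 only. Whether the numbers are pairs could not be settled by the check described above.

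The number of members with p below 0.05 in 4-PBA against CVST+Ligation was 1, Plin4, with DESeq2 size factors, total counts, DESeq2, at least 1 count, at least 10 counts, only the 2 groups compared, the replicate block and limma on log2(FPKM + 1). In 4-PBA against CVST it was 2, Sgk1 and Tsc22d3, with only the 2 groups compared and with the replicate block. Leaving out 1 mouse at a time it ranged from 1 to 2, from 0 to 2 and from 0 to 2 in the 3 comparisons (CVST+Ligation against CVST, 4-PBA against CVST+Ligation, 4-PBA against CVST). Of all genes tested, 8.22 to 12%, 2.69 to 3.88% and 13.8 to 17.9% had p below 0.05 in these comparisons with all mice, and 8.07 to 11.1%, 1.72 to 10% and 10.1 to 16.3% with 1 mouse left out. Of the other receptor targets, the replicate block gave 2 in CVST+Ligation against CVST and 9 in 4-PBA against CVST, and leaving out mice gave 1 to 3, 0 to 2 and 2 to 9.

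Over all genes, the number with an adjusted p below 0.05 was 264, 22 and 855 with DESeq2, while at least 10 counts gave 0 and 6 in the comparisons against CVST. At least 1 count gave 112 in 4-PBA against CVST. Only the 2 groups compared gave 1 and 234 in the comparisons against CVST, and the replicate block gave 1 in CVST+Ligation against CVST and 1 in 4-PBA against CVST+Ligation. Limma on log2(FPKM + 1) gave 2 in 4-PBA against CVST+Ligation and 87 in 4-PBA against CVST, and limma on log2(FPKM + 0.1) gave 13 in CVST+Ligation against CVST and 134 in 4-PBA against CVST. Leaving out mice gave 0 to 7, 0 to 2 and 2 to 162. The number with an unadjusted p below 0.05 in 4-PBA against CVST+Ligation ranged from 256 to 1497, the highest without CVST+Ligation mouse 2. The causes were not tested.

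Fold changes near 0 changed sign. In CVST+Ligation against CVST, Zbtb16 was −0.12 with the replicate block and −0.0013 with limma on log2(FPKM + 0.1), and Mt2 was 0.038 with the block and 0.089 and 0.090 with the limma fits. In 4-PBA against CVST+Ligation, the block gave 0.037 for Fkbp5 and 0.078 for Tsc22d3, and limma on log2(FPKM + 1) and log2(FPKM + 0.1) gave 0.11 and 0.12 for Fkbp5, 0.0062 and 0.0068 for Sgk1, and 0.10 and 0.10 for Tsc22d3. Leaving out mice, CVST+Ligation against CVST ranged from −0.085 to 0.55 for Fkbp5, −0.23 to 0.30 for Zbtb16, −0.16 to 0.64 for Pdk4, −0.43 to 0.049 for Mt1, −0.39 to 0.27 for Mt2 and −0.29 to 0.30 for Nr3c1. In 4-PBA against CVST+Ligation the ranges were −0.37 to 0.26 for Fkbp5, −0.20 to 0.21 for Sgk1, −0.21 to 0.45 for Tsc22d3, −0.10 to 0.18 for Pdk4, −0.091 to 0.67 for Mt1, −0.36 to 0.67 for Mt2 and −0.084 to 0.71 for Cdkn1a. In 4-PBA against CVST they were −0.83 to 0.0098 for Zbtb16, −0.10 to 0.70 for Pdk4, −0.22 to 0.54 for Mt1, −0.41 to 0.66 for Mt2 and −0.49 to 0.10 for Nr3c1.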
